A study of Mus musculus with 4 samples.

Results

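The set described here comprised 39 mouse genes that act in germ cells or in meiosis, matched by exact symbol among the 53379 gene identifiers of the files. All 39 symbols were found, and 37 members were among the 19148 genes with enough reads to be tested. The genes fell into 6 groups by role: germ cell and early embryo identity (6 genes), piRNA pathway and nuage (14 genes), chromosome axis and synaptonemal complex (6 genes), meiotic cohesin (3 genes), meiotic recombination (5 genes) and other germline-enriched genes (5 genes). The RNA came from DKO741, a *Terc*-/- mouse embryonic stem cell (mESC) line made from E14 cells by replacing both alleles of the telomerase RNA gene. Both groups carried this knock-out, and they differed in time in culture: pre-ALT cells at population doubling (PD) 100 and post-ALT cells at PD800, which maintain telomeres by the alternative lengthening of telomeres (ALT) without telomerase. The labels also give these numbers as passages. Each group had 2 libraries, which the study's methods call biological duplicates, and all 4 came from this single line, maintained on mouse embryonic fibroblast feeders but sampled feeder-free.

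Meiosis reduces the chromosome number of germ cells. Sister chromatids are held together by a meiosis-specific cohesin. Homologous chromosomes are joined along a protein axis by the synaptonemal complex and exchange segments by recombination. In the male germline, PIWI proteins and their piRNAs gather in cytoplasmic granules called nuage and silence transposons. Most of these genes are silent in somatic cells, where many of their CpG-rich promoters carry DNA methylation, and mESCs repress part of the set through a polycomb complex that contains the DNA-binding proteins MGA, MAX and E2F6. MGA with MAX binds an E-box (CACGTG), and E2F proteins bind a core that can be written TCCCGC on either strand (GCGGGA on the other).

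Start-site windows (250 bases before to 50 after the RefSeq start, GRCm38.p6) were given for 32 of the 39 members. A gene with several RefSeq starts was represented by the window farthest upstream, and its other windows were not searched. Windows for 6 of the members that rose or fell are shown 5′ to 3′ on the strand of the gene, with E-box and E2F core letters in capitals. *Stra8*, *Syce1* and *Dazl* are printed because they rose most, *Stag3* and *Rec8* because these cohesin subunits moved in opposite directions, and *Tdrd1* because it is a piRNA gene that fell.
Stra8 (chr6:34920698-34920997, plus strand): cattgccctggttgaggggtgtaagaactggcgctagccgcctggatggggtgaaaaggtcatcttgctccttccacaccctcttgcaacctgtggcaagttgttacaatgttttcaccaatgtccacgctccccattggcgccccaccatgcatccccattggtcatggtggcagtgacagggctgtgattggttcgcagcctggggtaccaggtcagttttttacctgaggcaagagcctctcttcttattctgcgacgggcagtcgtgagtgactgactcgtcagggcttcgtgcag
Syce1 (chr7:140787805-140788104, minus strand): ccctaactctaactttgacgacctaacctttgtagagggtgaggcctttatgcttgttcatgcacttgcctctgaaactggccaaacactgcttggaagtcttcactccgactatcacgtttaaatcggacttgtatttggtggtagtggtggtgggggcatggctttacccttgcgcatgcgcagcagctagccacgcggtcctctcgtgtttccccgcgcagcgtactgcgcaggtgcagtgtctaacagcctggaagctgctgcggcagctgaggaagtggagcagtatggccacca
Dazl (chr17:50293571-50293870, minus strand): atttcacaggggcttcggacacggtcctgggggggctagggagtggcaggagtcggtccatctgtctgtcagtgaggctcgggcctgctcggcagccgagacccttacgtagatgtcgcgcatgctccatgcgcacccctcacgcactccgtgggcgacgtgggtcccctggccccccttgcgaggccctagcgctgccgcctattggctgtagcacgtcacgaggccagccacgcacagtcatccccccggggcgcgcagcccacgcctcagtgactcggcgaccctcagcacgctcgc
Stag3 (chr5:138280259-138280558, plus strand): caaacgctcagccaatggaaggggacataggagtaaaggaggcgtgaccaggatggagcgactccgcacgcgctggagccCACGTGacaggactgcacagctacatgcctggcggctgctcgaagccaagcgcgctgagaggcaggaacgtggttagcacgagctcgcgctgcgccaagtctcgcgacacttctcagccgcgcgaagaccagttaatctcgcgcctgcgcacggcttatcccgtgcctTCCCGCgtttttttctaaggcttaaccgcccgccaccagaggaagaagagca
Rec8 (chr14:55617916-55618215, plus strand): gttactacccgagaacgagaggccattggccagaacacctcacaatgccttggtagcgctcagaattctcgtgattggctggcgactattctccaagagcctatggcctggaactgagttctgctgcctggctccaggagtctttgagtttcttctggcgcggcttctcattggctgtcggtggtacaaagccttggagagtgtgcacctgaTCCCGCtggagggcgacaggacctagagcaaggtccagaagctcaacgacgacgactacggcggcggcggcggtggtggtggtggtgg
Tdrd1 (chr19:56825959-56826258, plus strand): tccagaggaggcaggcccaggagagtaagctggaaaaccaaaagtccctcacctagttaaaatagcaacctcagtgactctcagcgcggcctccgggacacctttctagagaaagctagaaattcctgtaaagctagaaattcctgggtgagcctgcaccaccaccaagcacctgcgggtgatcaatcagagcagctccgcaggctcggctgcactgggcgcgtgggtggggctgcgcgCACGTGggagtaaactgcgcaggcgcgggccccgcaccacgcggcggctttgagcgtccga

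No window of the 3 genes that rose most held either motif. The window of *Stra8* starts at 34920698, inside the gene as annotated by GENCODE, which starts at 34920163. Among the 32 windows of members, 14 (43.8%) held an E-box, against 7.24% of all 27025 RefSeq windows, and 13 (40.6%) held the E2F core, against 20.1% of all windows. Both motifs occurred together in 7 windows (21.9%), against 2.05% of all. The windows of members were also richer in CpG, with a median observed-over-expected CpG ratio of 0.76 against 0.39 over all windows. Among windows with a ratio of at least 0.6, a level chosen after the values were seen, the E-box was in 54.2% of 24 member windows and in 11.4% of 9950 windows of all genes. For the E2F core, the shares at this CpG level were 45.8% and 42.8%, so that this motif was about as frequent in CpG-rich windows of any gene. Both directions of change held motifs: an E-box was in 2 of the 6 windows of members that rose and in 2 of the 5 windows of members that fell, and the E2F core was in 1 window of each. These are matches of letters only, and binding was not measured.

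**Figure D1:**
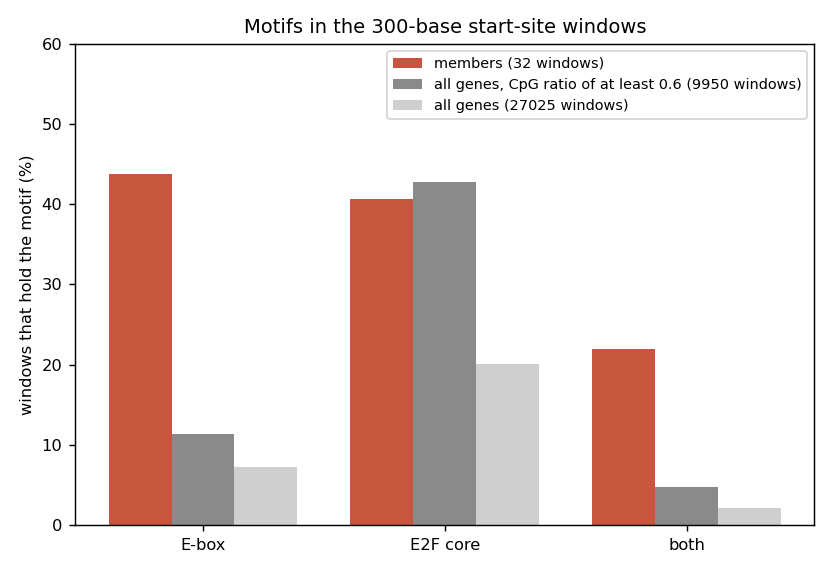
Share of start-site windows (y axis, %) that hold the E-box, the E2F core or both, for the 32 member windows, the 9950 windows of all genes with a CpG ratio of at least 0.6 and all 27025 windows. The E-box bar of the members stands at 43.8% against 11.4% and 7.24%, whereas the E2F core bars of the members and of CpG-rich genes are at 40.6% and 42.8%.

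The total expected count per library, the estimated number of read pairs assigned to genes, was between 32454121 and 38492149. At these depths, the 3 counts taken as the detection floor were worth 0.0743 to 0.0934 CPM (counts scaled to library size), an allowance for counting error alone. The deleted gene, *Terc*, had 1 count in PD100 replicate 1 and no count elsewhere. The correlation of log2 CPM across genes was 0.984 and 0.992 within groups and 0.935 to 0.944 between them. The mitochondrial share of all counts was 11.01% and 15.44% at PD100 and 16.03% and 17.71% at PD800. In what follows, levels are in TPM, which the authors' software scaled for gene length and library size. Differences are log2 fold changes of PD800 over PD100 in expected counts, with a standard error (SE), from the quasi-likelihood test of edgeR, with p-values adjusted over the 19148 genes by the Benjamini-Hochberg method. A gene was said to rise or fall where its adjusted p was under 0.01 and the change exceeded 2-fold. Groups of 2 allow an exact permutation p of no less than 0.333 for a single gene, so that these p-values rest on the spread estimated across all genes.

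Most members were expressed at low levels. Of the 39 genes, 31 stayed under 10 TPM in every library and 12 had a mean under 1 TPM in both groups. *Dppa5a*, a gene of early embryos and mESCs, was the highest, at 681.75 and 1068.24 TPM in PD100 replicates 1 and 2 and 1051.35 and 1156.01 TPM in PD800. Without *Dppa5a*, the members together summed to 169 and 164 TPM in the PD100 libraries and to 205 and 200 TPM in the PD800 libraries. After *Dppa5a*, the highest members by mean level were *Tex19.1*, *Tdrd12* and *Dppa3* at PD100, and *Tex19.1*, *Syce1* and *Stag3* at PD800.

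**Figure D2:**
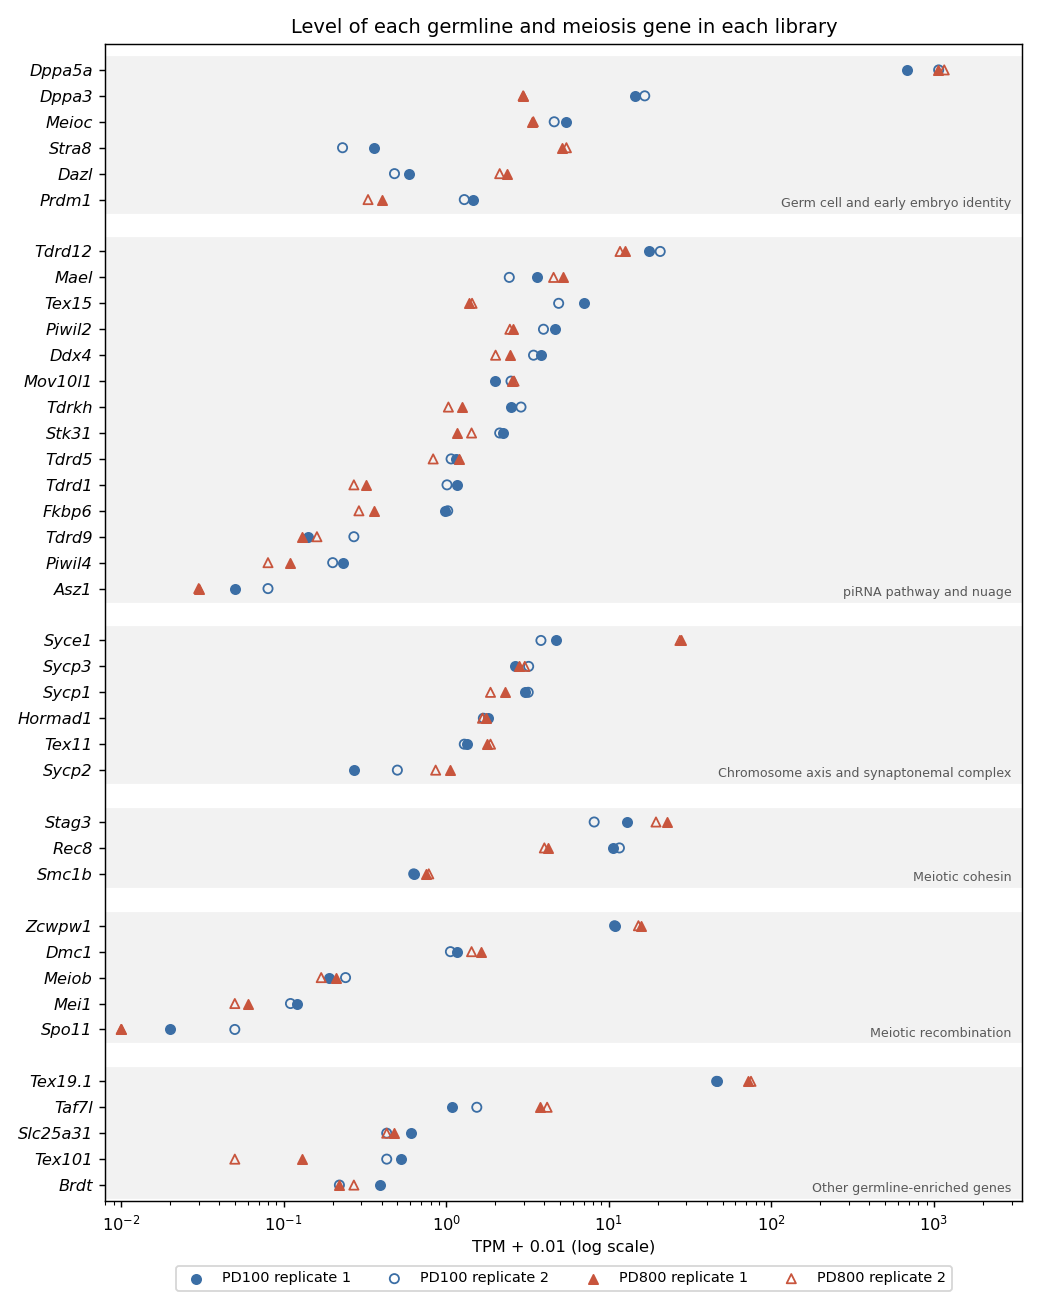
TPM + 0.01 (x axis, log scale) of each of the 39 members in each library, grouped by role and ordered by mean level, with circles for PD100, triangles for PD800, filled for replicate 1 and open for replicate 2. The replicates of *Stra8* stand at 0.35 and 0.22 TPM against 5.17 and 5.47 TPM, the widest gap between the groups.

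The set did not move as a block. Of the 37 tested members, 6 rose (16.2%, against 6.28% of all tested genes) and 7 fell (18.9%, against 8.81%). At an adjusted p under 0.01 with no fold threshold, 11 members were higher (29.7%, against 13.1% of all genes) and 9 lower (24.3%, against 15.4%). The median log2 fold change of the tested members was 0.05, next to 0.01 over all tested genes, and single members ranged from -2.25 to 4.52. The shares of members called were therefore above those of all genes in both directions, while the medians were close. On log2(TPM + 1), a scale that compresses low genes, limma called 4 members higher and 3 lower. Over all 19148 tested genes it called 297 higher and 920 lower, also fewer than edgeR. The members no longer called were *Sycp2*, *Stag3*, *Prdm1*, *Fkbp6*, *Tdrd1* and *Tdrkh*. *Spo11*, the enzyme that makes the DNA breaks of meiosis, and *Asz1*, a nuage protein, were too low to be tested, with 2, 5, 0 and 0 counts and with 3, 5, 2 and 2 counts in PD100 replicates 1 and 2 and PD800 replicates 1 and 2, respectively. As these were bulk libraries, a change in the number of cells that express a gene and a change in RNA per cell cannot be told apart.

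**Figure D3:**
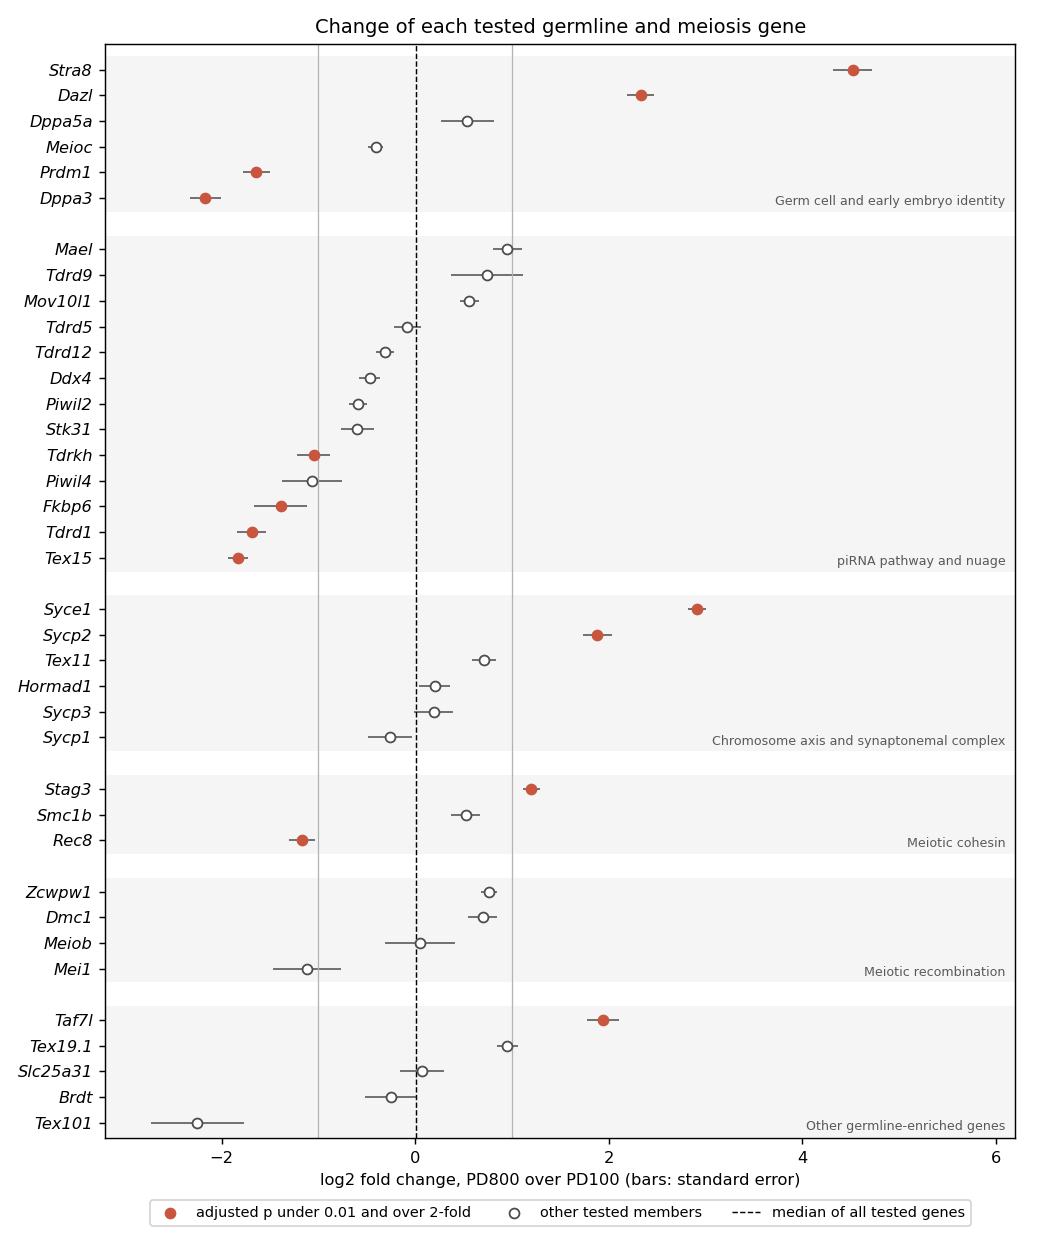
Log2 fold change of PD800 over PD100 (x axis) with its SE (bars) for the 37 tested members, grouped by role, with filled points for the 13 members past an adjusted p of 0.01 and a 2-fold change. Filled points stand on both sides of the dashed median of all tested genes (0.01), from -2.17 for *Dppa3* to 4.52 for *Stra8*.

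Of the 6 identity genes, 2 rose and 2 fell (33.3% each way, against 6.28% of all tested genes that rose and 8.81% that fell). Shares of 6 genes are too coarse to weigh against those of all genes. *Stra8*, which germ cells switch on in response to retinoic acid before meiosis, had 0.35 and 0.22 TPM in PD100 replicates 1 and 2 and 5.17 and 5.47 TPM in PD800. Both PD800 libraries were far above both PD100 libraries, and the rise was the largest of the set, with a log2 fold change of 4.52 (SE 0.20, adjusted p = 6.57e-05) or 22.9-fold. *Stra8* (ENSMUSG00000029848) lies on chromosome 6 from 34920163 to 34939344 of GRCm38. *Dazl*, an RNA-binding protein needed for germ cells to become competent for meiosis, was at 0.58 and 0.47 TPM at PD100 and at 2.34 and 2.12 TPM at PD800. The groups did not overlap, and the log2 fold change was 2.33 (SE 0.14, adjusted p = 0.000118). *Dazl* (ENSMUSG00000010592) lies on chromosome 17 from 50279395 to 50293636.

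*Dppa3* (also called Stella), a maternal factor and marker of germ cell precursors and of naive mESCs, was at 14.53 and 16.61 TPM at PD100 and at 2.94 and 2.96 TPM at PD800. It fell by 2.17 on the log2 scale (SE 0.16, adjusted p = 0.00026), which is 4.51-fold. *Prdm1*, a repressor that specifies primordial germ cells and is also made in visceral endoderm, was at 1.45 and 1.28 TPM at PD100 and at 0.39 and 0.32 TPM at PD800, a log2 fold change of -1.64 (SE 0.14, adjusted p = 0.000389). For both genes the groups were well apart. *Dppa3* (ENSMUSG00000046323) lies on chromosome 6 from 122626410 to 122630272 and *Prdm1* (ENSMUSG00000038151) on chromosome 10 from 44437177 to 44528501. *Meioc*, which sustains meiotic prophase, was lower by less than 2-fold (log2 fold change -0.41, adjusted p = 0.00832). *Dppa5a* did not pass the test (0.54, SE 0.27, adjusted p = 0.15), and PD100 replicate 1 lay well below the other 3 libraries. Its log2 fold change was 1.01 without PD100 replicate 2 (adjusted p = 2.93e-06) and 0.18 without PD100 replicate 1 (adjusted p = 0.11), and the adjusted p was 0.172 and 0.362 without PD800 replicates 1 and 2. With a PD100 library left out, the spread came from the more alike PD800 libraries (common dispersion 0.00318, against 0.0136 with all libraries and 0.0248 with a PD800 library left out). The p-values without a PD100 library are therefore smaller for the same change and cannot be compared with the others.

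Of the 13 tested piRNA and nuage genes, 4 fell (30.8%, against 8.81% of all tested genes) and none rose (against 6.28%), and their median log2 fold change was -0.59. The summed level of the 14 genes was 47.2 and 46.5 TPM at PD100 and 31.3 and 28.8 TPM at PD800. *Tex15*, which acts in piRNA-directed transposon silencing and in meiotic repair, was at 7.05 and 4.90 TPM at PD100 and at 1.36 and 1.43 TPM at PD800, a log2 fold change of -1.83 (SE 0.10, adjusted p = 9.65e-05). *Tdrd1*, a Tudor-domain scaffold of nuage, was at 1.16 and 1.00 TPM at PD100 and at 0.31 and 0.26 TPM at PD800, a log2 fold change of -1.69 (SE 0.15, adjusted p = 0.000427). In both genes every PD800 library was below every PD100 library. *Fkbp6*, a co-chaperone of piRNA production, was at 0.97 and 1.01 TPM at PD100 and at 0.35 and 0.28 TPM at PD800, a log2 fold change of -1.39 (SE 0.27, adjusted p = 0.00752). *Tdrkh*, a Tudor protein on mitochondria that takes part in piRNA trimming, was at 2.5 and 2.87 TPM at PD100 and at 1.24 and 1.02 TPM at PD800, a log2 fold change of -1.05 (SE 0.17, adjusted p = 0.00458). Both calls were lost whichever PD800 library was left out, with 1 library then in that group. For *Fkbp6* the log2 fold change was -1.61 (adjusted p = 0.0225) without PD800 replicate 1 and -1.22 (adjusted p = 0.0481) without PD800 replicate 2. For *Tdrkh* it was -1.16 (adjusted p = 0.0155) and -0.94 (adjusted p = 0.0287), and -0.91, under 2-fold, without PD100 replicate 2. For *Tdrkh*, moreover, 36.7% of its exonic bases overlap *Oaz3* on the opposite strand, and whether the counting used strand is not given in the sources used here.

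Within the same pathway, members with roles next to these genes differed. *Piwil2*, a PIWI protein that makes piRNAs in germ cells, was lower by less than 2-fold (log2 fold change -0.59, SE 0.09, adjusted p = 0.00281), at 4.67 and 3.95 TPM at PD100 and at 2.56 and 2.45 TPM at PD800. *Mov10l1*, the helicase that starts piRNA processing, was higher by less than 2-fold (0.56, SE 0.10, adjusted p = 0.00627). *Mael*, a nuage protein, was also higher by less than 2-fold (0.95, SE 0.15, adjusted p = 0.00422), and was at 1.17 without PD100 replicate 1. Without PD800 replicates 1 and 2 its adjusted p was 0.0226 and 0.0106. *Tdrd12*, the most abundant member of the group, was at 17.72 and 20.68 TPM at PD100 and at 12.64 and 11.70 TPM at PD800, with a log2 fold change of -0.31 (SE 0.09, adjusted p = 0.0327). The germ cell helicase *Ddx4*, widely used as a germ cell marker, had a log2 fold change of -0.47 (SE 0.11, adjusted p = 0.0177). It was at 3.81 and 3.43 TPM at PD100 and at 2.47 and 2.0 TPM at PD800. *Stk31* (-0.60, adjusted p = 0.0345), *Tdrd5* (-0.08, adjusted p = 0.693), *Tdrd9* (0.74, adjusted p = 0.154) and *Piwil4* (-1.07, adjusted p = 0.033) did not pass either.

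The axis and synaptonemal complex genes had 2 members that rose (33.3%, against 6.28% of all tested genes), none that fell (against 8.81%), and a median log2 fold change of 0.45 over 6 genes. Here too, shares of 6 genes are too coarse to weigh against those of all genes. *Syce1*, a component of the central element that joins the paired chromosomes, was at 4.69 and 3.81 TPM at PD100 and at 27.78 and 27.35 TPM at PD800. The groups were far apart, with a log2 fold change of 2.91 (SE 0.09, adjusted p = 3.59e-05) or 7.53-fold. This gene (ENSMUSG00000025480) lies on chromosome 7 from 140777229 to 140787852. The 6 genes together summed to 13.8 and 13.6 TPM at PD100 and to 37.4 and 36.6 TPM at PD800, and most of that difference was *Syce1*. *Sycp2*, an axis protein, was at 0.26 and 0.49 TPM at PD100 and at 1.04 and 0.85 TPM at PD800, a log2 fold change of 1.88 (SE 0.15, adjusted p = 0.000302). On the TPM scale the call of *Sycp2* was lost, at 1.18 (adjusted p = 0.0362) by limma on log2(TPM + 0.1). *Tex11*, an X-linked gene for a meiotic crossover protein, was higher by less than 2-fold (0.71, SE 0.12, adjusted p = 0.00474).

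The other 3 members of this group, *Sycp1*, *Sycp3* and *Hormad1*, did not pass the test. *Sycp1*, the transverse filament to which the central element binds, was at 3.04 and 3.18 TPM at PD100 and at 2.28 and 1.86 TPM at PD800, with a log2 fold change of -0.26 (SE 0.23, adjusted p = 0.393) that was 0.09 without PD100 replicate 1. *Sycp3*, the axis protein that binds *Sycp2*, was at 2.64 and 3.20 TPM at PD100 and at 2.78 and 3.03 TPM at PD800, with overlapping groups and a log2 fold change of 0.19 (SE 0.20, adjusted p = 0.485). Of its exonic bases, 52.2% overlap *Chpt1* on the opposite strand. *Hormad1*, which marks unpaired axes, had a log2 fold change of 0.20 (SE 0.16, adjusted p = 0.357). The directions of *Sycp3* and *Hormad1* were not stable: on log2(TPM + 1) their log2 fold changes were 0 and -0.02.

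Of the 3 cohesin subunits, 1 rose and 1 fell, counts too small to set beside the 6.28% and 8.81% of all tested genes. *Stag3* was at 12.96 and 8.11 TPM at PD100 and at 22.81 and 19.48 TPM at PD800, a log2 fold change of 1.20 (SE 0.09, adjusted p = 0.000259). *Rec8*, the subunit that closes the meiotic cohesin ring, was at 10.57 and 11.60 TPM at PD100 and at 4.19 and 4.0 TPM at PD800, a log2 fold change of -1.17 (SE 0.13, adjusted p = 0.000897). The groups did not overlap for either gene, but the call of *Stag3* was lost by limma on log2(TPM + 1), at 0.97 (adjusted p = 0.0289), and on log2(TPM + 0.1), at 1.03 (adjusted p = 0.0292). *Stag3* (ENSMUSG00000036928) lies on chromosome 5 from 138280240 to 138312393 and *Rec8* (ENSMUSG00000002324) on chromosome 14 from 55618037 to 55625395. *Smc1b*, the third subunit, was at 0.62 TPM in both PD100 libraries and at 0.74 and 0.77 TPM at PD800, with a log2 fold change of 0.52 (SE 0.15, adjusted p = 0.0341).

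Of the 4 tested recombination genes, none rose or fell, a number of genes too small to set beside the 6.28% and 8.81% of all tested genes. *Zcwpw1*, a histone reader at sites of meiotic breaks, was the most abundant, at 10.88 and 10.83 TPM at PD100 and at 15.85 and 15.19 TPM at PD800, and was higher by less than 2-fold (0.76, SE 0.08, adjusted p = 0.000918). *Dmc1*, the recombinase that carries out strand exchange between homologues, was at 1.15 and 1.05 TPM at PD100 and at 1.62 and 1.42 TPM at PD800. Its log2 fold change of 0.70 (SE 0.15) was under 2-fold, and its adjusted p of 0.0108 was just over 0.01. *Mei1*, *Meiob* and *Spo11* were at or below 0.23 TPM in every library.

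Among the other germline-enriched genes, *Taf7l*, an X-linked germ cell relative of a general transcription factor subunit, was at 1.08 and 1.53 TPM at PD100 and at 3.78 and 4.16 TPM at PD800, a log2 fold change of 1.94 (SE 0.17, adjusted p = 0.000456). *Tex19.1*, a placental and germ cell gene that restrains retrotransposons, was the second most abundant member, at 46.33 and 46.00 TPM at PD100 and at 72.09 and 74.84 TPM at PD800. Its log2 fold change of 0.95 (SE 0.11, adjusted p = 0.001) lay just inside 2-fold, and was 1.05 without PD100 replicate 2 and 1.01 without PD800 replicate 1. *Tex101*, a surface protein of germ cells, had the lowest estimate of the set (-2.25, SE 0.48) on 24 and 18 counts at PD100 and 6 and 2 counts at PD800, and its adjusted p was 0.0116. *Slc25a31* (0.07, adjusted p = 0.841) and *Brdt* (-0.25, adjusted p = 0.496) were low in all libraries.

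As the study describes copy-number change near chromosome ends in post-ALT cells, each member was set beside the median log2 fold change of the 40 tested genes nearest to it on its chromosome. For 33 of the 37 members this median was between -1 and 1. The neighbours of *Stra8*, *Syce1* and *Dazl* had medians of 0.25, 0.44 and 0.32, far below the genes themselves, and those of *Dppa3* had a median of 0.55, opposite in sign to its fall. For *Taf7l* and *Sycp2* the neighbours moved nearly as much as the member, with medians of 1.71 and 1.70 against 1.94 and 1.88. Those of *Tex19.1* had a median of 1.5, above the gene itself. Of the members, 4 lay within 5 Mb of the last annotated base of their chromosome: *Tex19.1* at 0.822 Mb, *Sycp2* at 3.6 Mb, *Tdrd1* at 4.43 Mb and *Syce1* at 4.54 Mb. Around *Piwil2* on chromosome 14 the median was -1.05, below the -0.59 of the gene. The neighbours of *Stag3* had a median of 0.60, and those of *Tex15* and *Prdm1*, -0.66 and -0.79. DNA copy number was not analysed here, and its part in these differences was not tested.

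**Figure D4:**
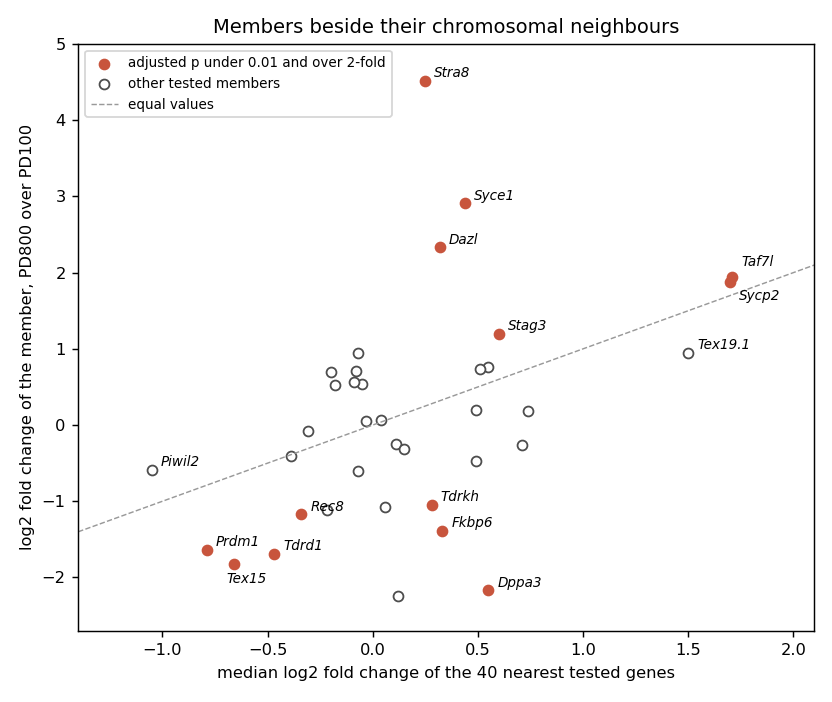
Log2 fold change of each tested member (y axis) against the median log2 fold change of its 40 nearest tested genes (x axis), with the dashed line where both are equal and filled points for members past both thresholds. *Stra8*, *Syce1* and *Dazl* stand far above the line with neighbour medians of 0.25, 0.44 and 0.32, while *Taf7l* and *Sycp2* lie close to it.

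Of 22 tested meiosis genes outside the set, 3 rose (13.6%, against 6.28% of all tested genes) and 2 fell (9.09%, near the 8.81% of all tested genes), with a median of 0.30. *Hsf2bp*, a partner of BRCA2 in meiotic repair, was at 4.47 and 3.74 TPM at PD100 and at 10.58 and 10.13 TPM at PD800 (log2 fold change 1.78, adjusted p = 0.000116). *Rec114*, needed for meiotic breaks, also rose (1.24, adjusted p = 0.00113), from 3.19 and 3.03 TPM to 5.85 and 6.27 TPM, as did the crossover helicase *Hfm1* (1.32, adjusted p = 0.00525), which stayed under 1 TPM. The central-element genes *Syce2* and *Syce3*, whose products join the same structure as that of *Syce1*, fell. *Syce2* was at 51.18 and 47.40 TPM at PD100 and at 14.56 and 16.62 TPM at PD800 (-1.43, adjusted p = 0.000205), and *Syce3* was at 4.4 and 2.52 TPM at PD100 and at 1.00 and 0.86 TPM at PD800 (-1.65, adjusted p = 0.00787). *Syce1* rose while *Syce2* and *Syce3* fell, and the central-element gene *Tex12* was too low to be tested. Of 12 tested piRNA genes outside the set, 2 rose (16.7%, against 6.28%) and 1 fell (8.33%, near the 8.81% of all tested genes), with a median of -0.12. The PIWI gene *Piwil1* rose (2.06, adjusted p = 0.00163) while staying at or below 0.43 TPM, *Gpat2* rose (1.32, adjusted p = 0.00148) and the Tudor gene *Tdrd7* fell (-1.24, adjusted p = 0.000525).

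Of 14 tested germ cell specification genes, 4 rose (28.6%, against 6.28% of all tested genes) and none fell (against 8.81%), with a median of 0.39. *Sohlh2*, a transcription factor of early spermatogonia and oocytes, was at 1.06 and 0.86 TPM at PD100 and at 11.88 and 10.76 TPM at PD800 (log2 fold change 3.80, SE 0.10, adjusted p = 3.03e-05). *Prdm14*, which acts in germ cell precursors and in naive mESCs, was at 1.61 and 1.35 TPM at PD100 and at 7.64 and 7.25 TPM at PD800 (2.57, adjusted p = 4.46e-05). *Kit*, the receptor for stem cell factor, rose by 1.85 (adjusted p = 7.94e-05) and *Tex19.2* by 1.56 (adjusted p = 0.00673). With *Prdm1* lower and *Prdm14* higher, the PRDM genes of germ cell specification did not share a direction.

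Of 22 repressors and methylation enzymes that act on germline promoters, 1 rose and 1 fell (4.55% each way, under the 6.28% and 8.81% of all tested genes), with a median of 0.14. *Tet2*, which oxidises methylated cytosine, was at 11.11 and 7.19 TPM at PD100 and at 37.81 and 32.15 TPM at PD800 (log2 fold change 2.13, SE 0.17, adjusted p = 0.000309). *Dnmt3b*, a de novo DNA methyltransferase, was at 53.92 and 53.32 TPM at PD100 and at 14.23 and 13.96 TPM at PD800 (-1.76, SE 0.08, adjusted p = 6.55e-05). Of the genes for the E-box and E2F complex, *Max* (0.76) and *Ring1* (0.65) were higher by less than 2-fold, and *Pcgf6* (-0.51) and *Tfdp1* (-0.72) were lower by less than 2-fold. *E2f6* (0.13, adjusted p = 0.212) and *Mga* (0.10, adjusted p = 0.334) did not pass. Promoter methylation and binding of these proteins at the members were not analysed here.

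**Figure D5:**
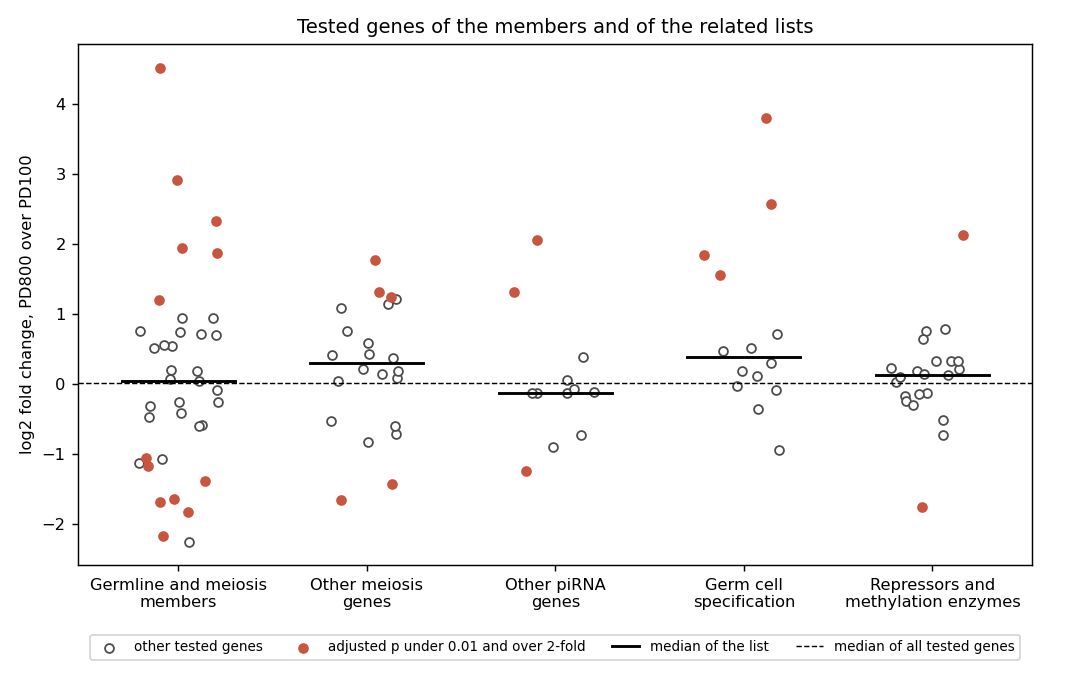
Log2 fold change of PD800 over PD100 (y axis) for the tested genes of the set and of the 4 related lists, with filled points for genes past both thresholds, thick bars for list medians and a dashed line for the median of all tested genes (sideways scatter is for legibility only). The medians are 0.05 for the members, 0.30 for other meiosis genes, -0.12 for other piRNA genes, 0.39 for germ cell specification and 0.14 for the repressors.

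Among markers of the cells that these cultures could hold, many also differed between PD100 and PD800. The 12 pluripotency markers were present in all libraries, summing to 2330 and 2310 CPM at PD100 and to 4130 and 4090 CPM at PD800, and 5 of them rose (41.7%, against 6.28% of all tested genes). All 10 primitive endoderm markers fell (against 8.81% of all tested genes), from 2370 and 2610 CPM to 239 and 250 CPM. Of the 9 tested fibroblast feeder markers, 6 fell (66.7%, against 8.81% of all tested genes), and the sum of all 10 was 77.1 and 103 CPM at PD100 and 25.0 and 26.4 CPM at PD800, with *Lum* at or below 3 counts throughout. For somatic cells of the gonad, which would accompany true germ cells in tissue, 2 of 6 tested markers fell (33.3%, against 8.81% of all tested genes), *Gata4* and *Wt1*. The sum of all 10 was 53.4 and 42.5 CPM at PD100 and 20.8 and 18.4 CPM at PD800, of which *Gata4*, also among the primitive endoderm markers, gave 35.9 and 25.2 CPM at PD100 and 4.06 and 4.23 CPM at PD800. Of 8 tested two-cell-like markers, 5 fell (62.5%, against 8.81% of all tested genes) and 2 rose (25.0%, against 6.28%). The 9 found had sums of 181 and 159 CPM at PD100 and 223 and 215 CPM at PD800 that were mostly *Eif1a*. No marker of any list was at 0 in all 4 libraries. The part of these cell states in the changes of the members was not tested.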

How the data were processed

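RNA of DKO741 *Terc*-/- mESCs was sequenced as paired-end reads from 2 PD100 and 2 PD800 libraries, with groups taken from the population doubling that the sample titles give. The labels name total RNA. Per the submitters' processing notes, the tools were STAR 2.5.3a, RSEM 1.3.0 and DESeq2 1.18.1 with mm10, and the annotation release is not given in the sources used here. The authors deposited, for each gene, the expected count of RSEM, which is not scaled for depth and in which reads that align to several genes are divided. TPM values, which the authors obtained from RSEM with scaling for gene length and depth, served for levels. The deposited FPKM values were not used. Members had whole expected counts in all libraries for 36 of 39 genes, and the other 3 (*Sycp3*, *Zcwpw1* and *Tdrkh*) had divided reads.

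After rounding of the expected counts, edgeR 4.0.16 was run in R 4.3.3 using filterByExpr (minimum count 10), TMM and the quasi-likelihood test, two-sided, with Benjamini-Hochberg adjustment. Coordinates and neighbours came from GENCODE M21 (GRCm38, the same assembly as mm10), matched by gene identifier without its version, which matched 53274 identifiers and all 39 members. RefSeq start sites can differ from those of GENCODE. The windows of *Meiob*, *Dppa3*, *Piwil2*, *Tex15*, *Tex11*, *Spo11* and *Dppa5a* were not analysed here. Counts varied between replicates beyond sampling noise, with a chi-square per degree of freedom of 58 at PD100 and 9.13 at PD800, and the common dispersion was 0.0136. The procedure was tested on simulated data.

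Members and lists were chosen with earlier results of these data known. Any member could be named, with full statistics for those called or with a mean of at least 1 TPM in either group. From the other lists, called genes with at least 1 CPM were named, up to 4 in each direction, and any repressor. The symbols Iho1, Top6bl, Shoc1 and Dux matched no identifier under these names. Alternatives were DESeq2 1.42.0, its size factors, upper-quartile normalisation, other filters and thresholds, limma 3.58.1 on log2(TPM + 1) and log2(TPM + 0.1), the replicate number as a block, subtraction of the neighbours' median, and each library left out in turn.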

Additional observations from a re-analysis of the deposited data

How the results depend on the processing

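For the 29 members that were called or had a mean of at least 1 TPM in either group, 348 values were recomputed: 324 kept their direction and stayed called or not called at both thresholds together, 14 lost the call, 4 gained it and 6 changed sign. The adjusted p alone crossed 0.01 in 51 values of 16 members, upwards in 33, and of the members past it but under 2-fold only *Tex19.1* stayed past it throughout. The p-values of these fits cannot be compared directly. With no filter on low counts, edgeR took the spread wholly from the trend across genes, and with a library left out it rested on fewer libraries. The count of genes that were higher, 1202, was 297 with limma on log2(TPM + 1), 533 on log2(TPM + 0.1), 2513 with no fold threshold and 386 with the 2-fold change itself tested. The count that were lower, 1686, was 920, 1779, 2943 and 685 in the same order. Members called higher numbered 11 with no fold threshold, and members called lower 3 on log2(TPM + 1) and 4 with the 2-fold change tested. Both TPM scales shifted the median of all tested genes, to -0.12 and -0.21, and that of the members to -0.07 and -0.15. The members' median was -0.03 with the neighbours' median taken off, and from -0.05 to 0.10 with 1 library left out. The sign of *Hormad1* turned to -0.02 and -0.03 on the TPM scales, and *Sycp3* was at 0 on both. With 1 library left out, *Sycp3* ranged from -0.03 to 0.42 and *Sycp1* from -0.55 to 0.09. By DESeq2, 6 members were higher and 6 lower, against 1070 and 1557 of all 19148 tested genes. *Fkbp6* was lost there, at a log2 fold change of -1.41 (adjusted p = 0.0168).

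The labels share replicate numbers but name no shared batch, and the deviations of same-numbered libraries correlated at 0.265 over 2 pairs, so that the numbers were not taken as pairs. With the replicate block, 1461 genes were higher and 1956 lower, 6 members were higher and 8 lower, and the members' median was 0.06, while *Dppa5a* was at 0.60 (adjusted p = 0.00291). With 1 library of a group left out, the lone library was assumed to vary like the other group. The common dispersion was 0.00318 without a PD100 library and 0.0248 without a PD800 library. Depth limits the 12 members under 1 TPM, for which a missed threshold does not show equal levels.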
